A study of Mus musculus with 10 samples.

Results

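The tripartite motif (TRIM) family was followed between macrophages from lung metastases and macrophages from normal lung of mice. Members were the genes of the count tables whose symbol is Trim, a number and at most 1 letter from a to d, which gave 67 of 24538 genes. TRIM proteins share a RING finger, B-box domains and a coiled coil, and differ in the domain at the C-terminus. Many act as E3 ubiquitin ligases, and interferon induces a subset that restricts viruses or tunes the signals of cytosolic RNA and DNA sensors. Macrophages use these sensors to detect infection and damaged cells.

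Metastasis-associated macrophages (MAMs) were the CD11B+CD11C- cells of metastases that E0771-LG mouse mammary tumor cells formed after injection into the tail vein. Resident alveolar macrophages (RAMs) were the CD11B-CD11C+ cells of normal lungs from mice that carried no metastases. Both came from wild type C57BL6/J mice, female where metastases were induced, of 8 to 10 weeks, and both were gated as CD45+;F4/80+;LY6C-;MRC1+;FSC hi. There were 5 MAM libraries, each from metastases pooled over 2 to 4 mice by the labels, and 5 RAM libraries. The tumor cells are 1 line and the metastases were seeded through the blood, so primary tumor growth is no part of the model. Transcription inhibitors were present while the tissue was digested. The groups differ both in the presence of a tumor and in the CD11B and CD11C gate, and these cannot be told apart.

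Counts on genes ran from 55391447 to 87523247 per MAM library and from 50746305 to 72150650 per RAM library. Of the markers for alveolar macrophages 9 of 10 were lower in MAMs, where Chil3 averaged 105 CPM (counts scaled to the library total) against 9151 in RAMs. All 9 markers of monocyte-derived macrophages were higher in MAMs, and Itgam, which encodes CD11B, averaged 6270 CPM against 64.3. Itgam and, in the alveolar list, Itgax, which encodes CD11C, belong to the sorting gate, so their difference was set in advance. Proliferation markers summed to 170 to 224 CPM in MAMs and to 899 to 1200 CPM in RAMs. The summed CPM of stroma and endothelium markers was 42.6 to 96.2 against 2.13 to 12.0, that of neutrophil markers 4.03 to 18.04 against 1.71 to 3.98, and that of lymphocyte markers 12.4 to 26.4 against 4.95 to 19.99. In RAMs the list of epithelial and tumor cell markers was higher, at 589 to 702 CPM against 9.84 to 24.1, most of it from Krt19. Epcam and Cdh1 were also higher in RAMs. Krt8 (1.48 CPM in MAMs against 0.0453 in RAMs), Krt18 (1.81 against 0.119) and Krt14 (0.107 against 0) went the other way. Krt18 stood at 8.84 CPM in MAM1 and did not pass an adjusted p of 0.05, and Krt8 and Krt14 were not tested. Dendritic cell markers summed to 3.44 to 13.9 CPM against 17.2 to 26.0 and lung epithelium markers to 22.0 to 40.1 CPM against 25.7 to 46.2. Of the lung epithelium markers Hopx was higher in MAMs (21.0 against 1.10 CPM), and Sftpc, Sftpb and Scgb1a1 were over 2-fold lower. The globin genes were at 0, but counts of uniquely mapped reads leave out reads shared between gene copies. Alas2 was the most abundant erythroid marker, at 3.05 CPM in MAMs and 3.70 CPM in RAMs. What part other cells with these markers had in the results below was not tested.

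Trim30a, Trim30b and Trim30d, which are linked to interferon, were several-fold higher in MAMs, and Trim29 and Trim42 were far lower. The list of members linked to interferon and innate sensing was written with earlier results known. Of its 18 tested members 11 were higher (61.1%, against 28.9% of all genes tested), 1 was lower (5.56%, against 27.3%) and 6 did not pass. Of the 11, 7 were over 2-fold higher, as were 15.3% of all genes tested. The median log2 fold change of the 18 was 0.62. Of the 67 members 41 were expressed well enough to be tested, with a mean FPKM (fragments scaled by transcript length and library) of at least 1 in either group. At an adjusted p under 0.05, 15 members were higher in MAMs (36.6% of those tested, against 28.9% of all 11571 genes tested) and 11 were lower (26.8%, against 27.3%). With a fold change over 2 as well, 8 were higher (19.5% against 15.3%) and 7 lower (17.1% against 15.1%). The median log2 fold change of the members was -0.07, beside -0.015 over all genes tested. Groups did not overlap for 20 members (48.8% against 44.9% of all genes tested). The filter let in Trim30b through MAMs alone and Trim42, Trim45 and Trim72 through RAMs alone, so these 4 had to differ. All 4 are among the members counted over 2-fold, and Trim30b is also 1 of the 7 in the interferon list.

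**Figure D1:**
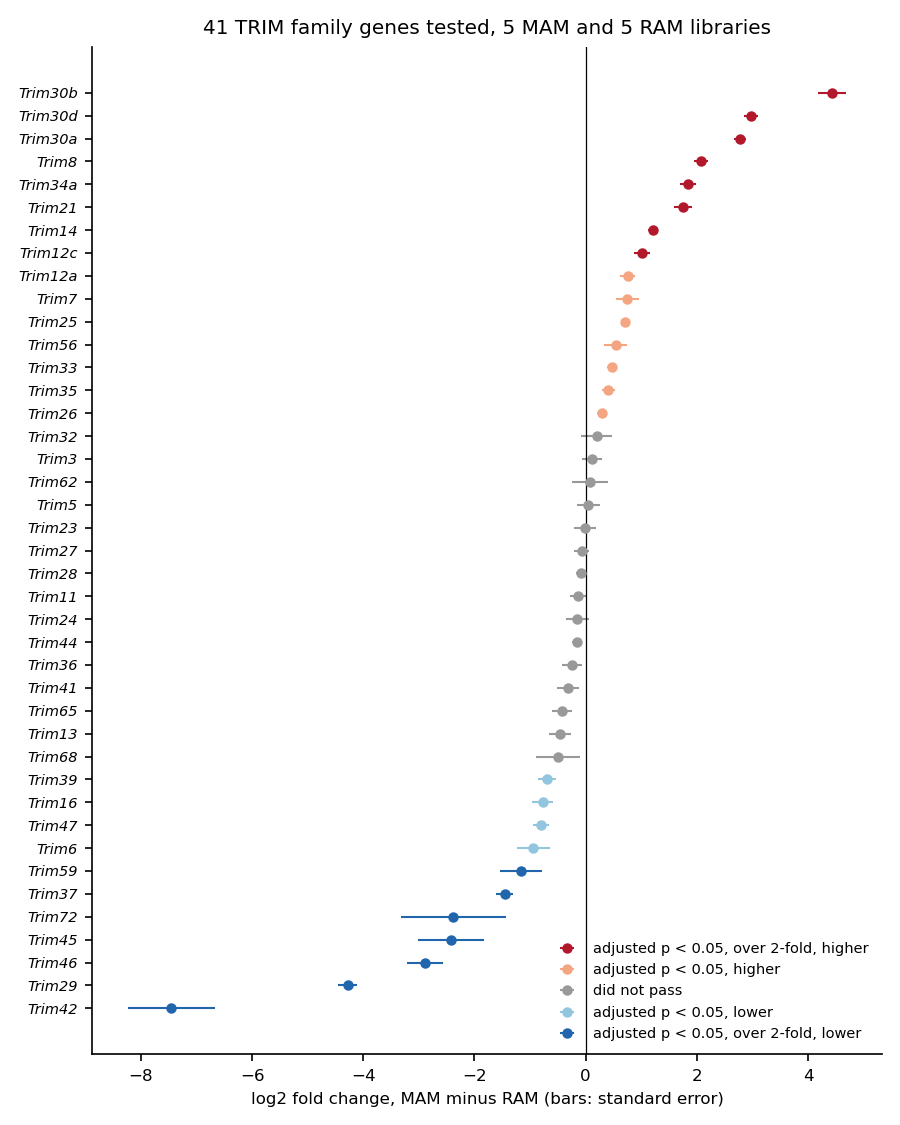
Log2 fold change of MAMs against RAMs for the 41 members tested, with 5 libraries a group; bars are the standard error and color gives the call. 8 members lie over 2-fold higher, from Trim12c at 1.01 to Trim30b at 4.43, and 7 over 2-fold lower, from Trim59 at -1.17 to Trim42 at -7.45.

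By transcript length, Trim25 was the most abundant member in both groups. TRIM25 is the E3 ligase known for activating the RNA sensor RIG-I. It measured 1483, 1480, 1372, 1562 and 1584 CPM in the MAM libraries and 819, 942, 899, 954 and 978 CPM in the RAM libraries. Every MAM library was above every RAM library, with a log2 fold change of 0.70 (SE 0.0672, edgeR adjusted p = 3.2e-07). In mean FPKM Trim25 was at 256 ± 13.6 in MAMs and 153 ± 10.2 in RAMs (SD, n = 5). It was followed in MAMs by Trim30a at 113 ± 15.3 FPKM and Trim14 at 73.0 ± 2.02 FPKM (SD, n = 5). In RAMs the next in order were Trim29 at 45.3 ± 2.83 FPKM and Trim14 at 32.4 ± 3.19 FPKM (SD, n = 5). The levels of these members did not overlap within a group, but Trim26 at 27.2 ± 3.29 FPKM (SD, n = 5) overlapped Trim14 in RAMs.

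The members together summed to 3774 ± 141 CPM in MAMs and 2340 ± 72.5 CPM in RAMs (SD, n = 5), a ratio of 1.61. Trim25 gave a like share of this sum in both, 39.7% ± 2.00 and 39.2% ± 1.73 (SD, n = 5). The genes of a cluster on chromosome 7 gave 25.6% ± 2.47 in MAMs and 8.70% ± 0.319 in RAMs (SD, n = 5). Without that cluster the ratio of the sums was 1.31, and without the cluster and Trim25 it was 1.08.

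**Figure D2:**
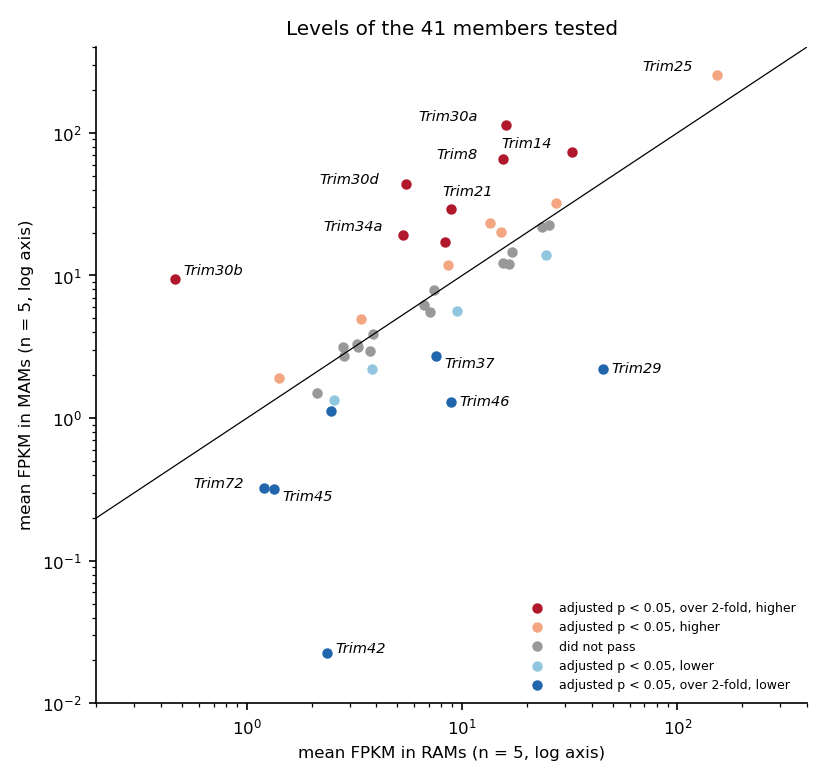
Mean FPKM of each tested member in RAMs (horizontal) and MAMs (vertical), both on log axes, with the line of equal levels and n = 5 libraries a group. Trim25 is highest in both groups, at 256 and 153 FPKM, and Trim29 is far below the line, at 2.2 FPKM in MAMs and 45.3 FPKM in RAMs.

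The cluster spans chr7:104218793-104507849 on GRCm38, 289057 bases that hold 9 members in the order Trim6, Trim34a, Trim5, Trim12a, Trim34b, Trim12c, Trim30b, Trim30a and Trim30d. It is the mouse counterpart of the region of the human retroviral restriction factor TRIM5. Of the 8 tested, 6 were higher in MAMs (75.0%, against 28.9% of all genes tested), 5 of them over 2-fold. Another 1 was lower (12.5%, against 27.3%) and 1 did not pass, and the median log2 fold change of the 8 was 1.43. The 3 TRIM30 genes at one end moved most. TRIM30a is induced by interferon and restrains NF-kappa B signaling in macrophages.

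To show what lies at the start sites of these genes, 110 bases of 6 members higher in MAMs and of their neighbors Trim5 and Trim6 are given 5′ to 3′ on the gene's strand, from RefSeq on GRCm38.p6. Each covers 80 bases before and 30 after the start site, and capitals mark the core of the interferon-stimulated response element (GAAANNGAAA), which on the other strand reads with TTTC in place of GAAA.
Trim30a, chr7:104465164-104465273, minus strand: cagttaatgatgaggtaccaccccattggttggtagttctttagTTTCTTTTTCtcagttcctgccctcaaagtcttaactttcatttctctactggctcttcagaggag
Trim30d, chr7:104507820-104507929, minus strand: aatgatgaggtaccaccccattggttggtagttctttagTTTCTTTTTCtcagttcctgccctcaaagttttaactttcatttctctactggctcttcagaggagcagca
Trim12c, chr7:104353320-104353429, minus strand: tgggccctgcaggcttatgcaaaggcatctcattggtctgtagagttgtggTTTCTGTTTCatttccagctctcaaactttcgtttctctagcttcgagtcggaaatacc
Trim34a, chr7:104244377-104244486, plus strand: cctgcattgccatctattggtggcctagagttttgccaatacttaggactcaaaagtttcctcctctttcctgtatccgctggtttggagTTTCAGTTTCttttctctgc
Trim21, chr7:102565453-102565562, minus strand: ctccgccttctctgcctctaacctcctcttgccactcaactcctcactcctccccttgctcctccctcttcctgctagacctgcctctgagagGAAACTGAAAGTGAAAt
Trim12a, chr7:104315466-104315575, minus strand: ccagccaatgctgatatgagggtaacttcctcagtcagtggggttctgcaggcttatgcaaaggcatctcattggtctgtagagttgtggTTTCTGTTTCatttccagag
Trim5, chr7:104288077-104288186, minus strand: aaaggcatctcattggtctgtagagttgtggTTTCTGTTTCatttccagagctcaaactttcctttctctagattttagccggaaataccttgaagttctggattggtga
Trim6, chr7:104218715-104218824, plus strand: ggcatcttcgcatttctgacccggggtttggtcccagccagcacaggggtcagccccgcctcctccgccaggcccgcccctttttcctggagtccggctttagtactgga
Trim21, on chromosome 7 outside the cluster, holds 2 matches that overlap, and Trim6 holds none. Every higher member shown holds a match, so the stretches do not show how common it is. Trim30b, Trim25, Trim56 and Trim7, also higher in MAMs, have no match in their windows and are not shown. The match stands before the start site in Trim30a, Trim30d, Trim12c and Trim5 and just after it in Trim34a, Trim21 and Trim12a.

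Trim30a measured 633, 549, 533, 465 and 475 CPM in the MAM libraries against 72.1, 70.9, 73.1, 89.9 and 80.8 CPM in the RAM libraries. Its log2 fold change was 2.78 (SE 0.103, edgeR adjusted p = 6.14e-12). Trim30d measured 228, 239, 184, 190 and 181 CPM in MAMs against 29.0, 23.0, 22.1, 24.3 and 30.9 CPM in RAMs. The lowest MAM library of either gene was several times the highest RAM library. The log2 fold change of Trim30d was 2.98 (SE 0.124, edgeR adjusted p = 2.3e-11). Trim30b was at 43.7, 42.5, 31.3, 32.8 and 32.7 CPM in MAMs and low in RAMs, at 1.83, 1.95, 1.24, 2.42 and 1.00 CPM. Its log2 fold change of 4.43 was the largest upward among the members tested (SE 0.255, edgeR adjusted p = 9.19e-10). Trim30b passed the filter through MAMs alone, however, so it had to differ. Trim30a and Trim30d share 4.79% and 5.53% of the 100-base words of their longest transcripts with each other. Reads from shared words can map to both genes and are then missing from counts of uniquely mapped reads. Trim5 shares 12.7% with Trim12c, Trim12a and other genes, and Trim12c 7.64% with Trim5, Trim12a and another gene.

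Trim34a, whose human counterpart is interferon-induced, measured 83.4, 74.2, 56.2, 56.0 and 56.1 CPM in MAMs against 17.9, 19.5, 15.2, 18.8 and 19.8 CPM in RAMs. The groups were well apart, with a log2 fold change of 1.84 (SE 0.145, edgeR adjusted p = 3.72e-08). The transcript shares 42% of its 100-base words with Trim34b and the overlapping Gm47248, so this value is uncertain. Trim34b itself was not tested, with 89, 9, 2, 24 and 9 counts in MAMs and 2, 6, 0, 4 and 3 counts in RAMs.

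Trim12a and Trim12c are mouse relatives of TRIM5. Trim12c measured 84.0, 74.6, 63.8, 55.1 and 86.0 CPM in MAMs against 36.8, 37.7, 41.6, 31.9 and 31.8 CPM in RAMs. Its log2 fold change was 1.01 (SE 0.136, edgeR adjusted p = 1.3e-05), at the edge of 2-fold, and 0.85 under upper-quartile scaling. Trim12a measured 37.9, 46.4, 40.1, 40.8 and 35.1 CPM in MAMs against 23.3, 27.4, 22.4, 26.0 and 19.1 CPM in RAMs. The groups did not overlap in either gene, and the log2 fold change of Trim12a was 0.76 (SE 0.134, edgeR adjusted p = 0.000184).

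Trim5 lies between these genes and did not pass. It measured 9.76, 9.56, 8.23, 9.30 and 11.9 CPM in MAMs and 7.95, 9.40, 9.61, 11.5 and 8.76 CPM in RAMs. The groups overlapped, with a log2 fold change of 0.05 (SE 0.207, edgeR adjusted p = 0.862). Trim6, known for building ubiquitin chains that activate the kinase IKK epsilon, went the other way. It measured 4.74, 6.22, 9.19, 5.5 and 3.53 CPM in MAMs against 8.03, 10.3, 15.7, 8.62 and 13.4 CPM in RAMs. The groups overlapped in part, and the log2 fold change of Trim6 was -0.94 (SE 0.299, edgeR adjusted p = 0.0142).

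**Figure D3:**
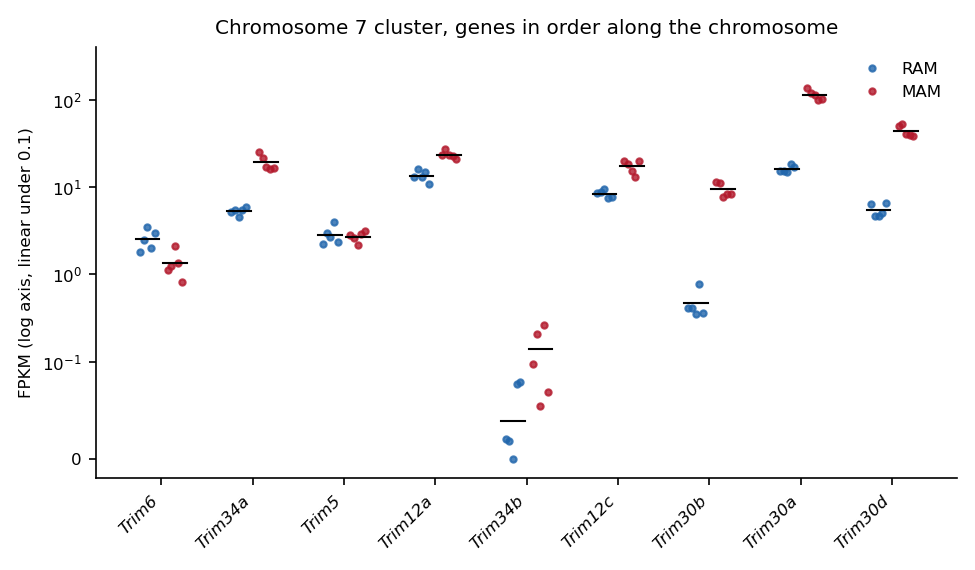
FPKM of the 9 members of the chromosome 7 cluster in each RAM and MAM library, in chromosome order, on a log axis that is linear under 0.1; bars are group means (n = 5). Trim30a, Trim30b and Trim30d stand well apart between groups, Trim5 does not, and Trim6 is lower in MAMs at 1.33 against 2.54 FPKM.

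Whether neighbors in the cluster differed in their change was tested on the log2 ratio of adjacent tested genes within each library, without Trim30b, which passed the filter through MAMs alone. The test was chosen after the fold changes were seen and restates them within libraries. The ratio differed between groups for 4 of 6 pairs in an exact two-sided permutation test (p = 0.00794, the smallest that 5 against 5 allows, adjusted p = 0.0119 over 6 pairs). Trim34a over Trim6 gained 2.79 (log2) in MAMs, and Trim5 over Trim34a was lower, at -1.78. Trim12a over Trim5 was higher by 0.72. Their 300-base promoter windows share an unbroken run of 241 bases that includes the response element core. Trim30a over Trim12c was higher by 1.77. Trim12c over Trim12a differed by 0.24 (exact permutation, adjusted p = 0.286) and Trim30d over Trim30a by 0.21 (exact permutation, adjusted p = 0.152), which did not pass. The promoter windows of Trim30a and Trim30d share a run of 118 bases with the core in it.

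Across the family, 52 of the 67 members had at least 1 RefSeq promoter window, from 250 bases before to 50 after a start site. The response element core stood in 5 of the 6 windowed members over 2-fold higher, in 0 of 6 over 2-fold lower, in 3 of 19 of the other members tested and in 1 of 21 of those not tested. Of the 9016 tested genes with a window 4.02% held it. The 3 others were Trim5, Trim12a and Trim26. Trim30b had no match, but its window starts inside the gene as GENCODE draws it, and Trim8, Trim14 and Trim29 had no window. These are matches of letters, given as a description.

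Outside the cluster, Trim8, Trim21 and Trim14 were over 2-fold higher in MAMs. TRIM8 modulates cytokine and NF-kappa B signaling. Trim8, at chr19:46501702-46516848, measured 145, 152, 139, 158 and 156 CPM in MAMs against 30.4, 39.4, 32.2, 29.9 and 46.1 CPM in RAMs. The MAM libraries lay close together and far above the RAM libraries, with a log2 fold change of 2.08 (SE 0.123, edgeR adjusted p = 1.36e-09).

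TRIM21 binds antibodies inside the cell and sends antibody-coated virus to the proteasome. Trim21, at chr7:102557921-102565486, measured 123, 97.1, 71.4, 79.4 and 70.8 CPM in MAMs against 25.4, 27.3, 22.4, 31.2 and 24.8 CPM in RAMs. All MAM libraries were above all RAM libraries, with a log2 fold change of 1.75 (SE 0.159, edgeR adjusted p = 1.77e-07). MAM1 was the highest library for Trim21, as it was for Trim30a, Trim30b and Trim34a.

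TRIM14 has no RING finger and supports signaling downstream of MAVS. Trim14, at chr4:46493781-46536141, measured 206, 201, 197, 211 and 210 CPM in MAMs against 93.9, 83.9, 101, 78.0 and 87.6 CPM in RAMs. The 5 MAM values spanned little, and the log2 fold change was 1.21 (SE 0.0809, edgeR adjusted p = 5.56e-09). Its exons overlap those of Nans on the other strand, and since the strand setting of the counting is not given in the sources used here, reads of the pair may not be told apart. Nans itself was at 25.3 CPM in MAMs and 23.7 CPM in RAMs.

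Of the 7 members higher in MAMs by under 2-fold, Trim25 and Trim12a are described above. Trim7, which binds glycogenin, had a log2 fold change of 0.74 and lost its call under limma on FPKM. Trim56, linked to sensing of viral nucleic acids, was at 0.54 and lost its call when any of 6 single libraries was left out. Trim33, a transcriptional regulator of the TGF-beta pathway, was at 0.47, Trim35 at 0.41 and Trim26, linked to IRF3 turnover, at 0.29. Trim26, Trim35 and Trim56 lost their calls under upper-quartile scaling, which moved the median of all genes from -0.015 to -0.18.

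Trim29 and Trim42 were the members most reduced in MAMs. TRIM29 also lacks a RING finger and has been described in alveolar macrophages as a brake on innate responses. Trim29, at chr9:43310848-43336115, measured 6.87, 7.52, 7.0, 5.59 and 3.95 CPM in MAMs against 112, 124, 119, 127 and 119 CPM in RAMs. The MAM mean was 5.15% of the RAM mean, and the log2 fold change was -4.28 (SE 0.164, edgeR adjusted p = 8.8e-12). Of the family's summed CPM Trim29 made up 5.14% ± 0.193 in RAMs and 0.164% ± 0.0382 in MAMs (SD, n = 5). In bulk samples a smaller number of expressing cells and less RNA per cell cannot be told apart.

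Trim42, a gene mainly known from testis, gave 8, 2, 0, 2 and 0 counts in MAMs against 368, 383, 328, 666 and 428 counts in RAMs. It was thus present in every RAM library and near absent from MAMs, with a log2 fold change of -7.45 (SE 0.777, edgeR adjusted p = 8.59e-07), and -8.68 without MAM replicate 1. Trim42 passed the filter through RAMs alone, so it had to differ. It overlaps Gm15891, with which 14.5% of its 100-base words are shared. Trim46, which bundles microtubules in the axon, measured 4.19, 4.70, 1.48, 4.13 and 4.80 CPM in MAMs against 21.2, 25.9, 26.5, 20.6 and 49.3 CPM in RAMs. The groups were apart, with a log2 fold change of -2.89 (SE 0.331, edgeR adjusted p = 2.42e-06). Exons of Trim46 overlap those of Krtcap2 on the other strand.

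Trim37 and Trim59 were lower together with the proliferation markers, of which 9 of 9 were lower in MAMs, and whether they moved with proliferation was not tested. TRIM37 acts in peroxisome import and centriole control. Trim37 measured 12.9, 22.5, 22.3, 18.6 and 16.3 CPM in MAMs against 54.2, 50.7, 51.3, 48.1 and 48.5 CPM in RAMs. No library overlapped, with a log2 fold change of -1.45 (SE 0.153, edgeR adjusted p = 9.41e-07). Trim59, a membrane-anchored member, measured 1.97, 3.32, 7.38, 4.94 and 3.12 CPM in MAMs against 7.17, 15.03, 10.7, 6.11 and 7.5 CPM in RAMs. Its groups overlapped, with a log2 fold change of -1.17 (SE 0.378, edgeR adjusted p = 0.0161), and the call was lost without RAM replicate 2, at -0.93.

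Trim45 and Trim72 were low and uneven, and both passed the filter through RAMs alone, so they had to differ. Trim45 measured 0.468, 1.18, 3.04, 0.362 and 1.16 CPM in MAMs against 10.4, 7.51, 9.13, 3.34 and 3.03 CPM in RAMs. The highest MAM library reached the lowest RAM library, with a log2 fold change of -2.43 (SE 0.594, edgeR adjusted p = 0.00269), and -3.07 without MAM replicate 3. TRIM72 seals membranes in striated muscle. Trim72 measured 0.752, 2.59, 0.157, 0.0905 and 0.804 CPM in MAMs against 8.30, 4.74, 8.61, 0.313 and 0.938 CPM in RAMs. Its log2 fold change was -2.38 (SE 0.938, edgeR adjusted p = 0.0425), and the call was lost under limma and in 7 of the 10 fits that left out a library. It held without MAM replicate 2, at -3.33, RAM replicate 4 or RAM replicate 5. Striated muscle markers summed to 14.6 to 35.5 CPM in MAMs and 32.4 to 60.8 CPM in RAMs, with Myh6 and Myh4 at 0. Ttn was the most abundant of them, at 20.5 CPM in MAMs and 32.0 CPM in RAMs. Of the 2 tested, Tnnt3 was lower in MAMs (0.903 against 14.4 CPM, log2 fold change -3.97) and Tnni3 did not pass. Whether Trim72 moved with these markers was not tested.

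**Figure D4:**
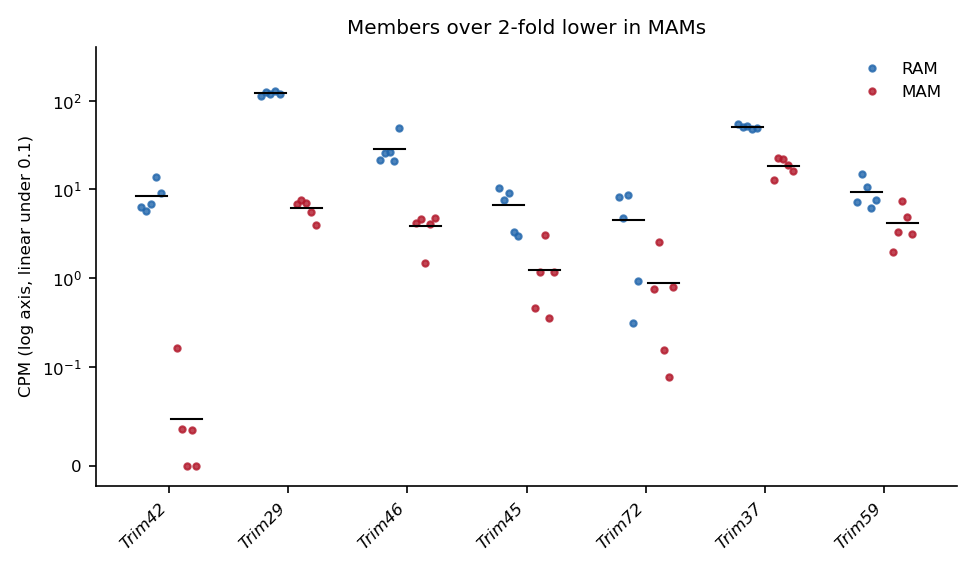
CPM of the 7 members over 2-fold lower in MAMs, one point per library on a log axis that is linear under 0.1, with group means as bars (n = 5). Trim42, Trim29, Trim46 and Trim37 do not overlap between groups, and Trim45, Trim72 and Trim59 do.

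The 4 members lower by under 2-fold were Trim6, Trim47 at a log2 fold change of -0.81, Trim16 at -0.78 and Trim39 at -0.70. The groups of the last 3 did not overlap. Another 15 members did not pass, with log2 fold changes from -0.50 to 0.20. Among them were Trim28 (KAP1), a corepressor that silences retroelements, at -0.08 (SE 0.0971), Trim24 at -0.15, Trim44 at -0.16, Trim27 at -0.07 and Trim32 at 0.20. Trim65, which ubiquitinates the RNA sensor MDA5, was at -0.42 (edgeR adjusted p = 0.0515) and passed in 8 of 20 alternatives. The rest were Trim3, Trim11, Trim13, Trim23, Trim36, Trim41, Trim62, Trim68 and Trim5.

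By C-terminal domain, no member was placed in more than a single class. COS box members were thus not counted under PRY-SPRY, whether or not they carry that domain too. The members classed by a PRY-SPRY domain gave 12 higher (50%, against 28.9% of all genes tested) and 5 lower (20.8%, against 27.3%) of 24 tested, with a median log2 fold change of 0.18. Of the 3 tested COS box members, which bind microtubules, 2 were lower (Trim42, which passed the filter through RAMs alone, and Trim46) and Trim36 did not pass. Genes under other names, among them Mid1, were not classed. Of the 3 tested with a PHD finger and bromodomain only Trim33 passed. Neither NHL repeat member tested, Trim3 and Trim32, passed.

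The other 26 members stayed under a mean FPKM of 1 in both groups and were not tested. Trim52, Trim58 and Trim80 were at 0 in every library, 6 had a highest count of 1 to 10, 11 of 11 to 100, and 6 of over 100 (Trim2, Trim15, Trim17, Trim43c, Trim71 and Trim75). Trim2, a neuronal member, gave 412, 488, 201, 282 and 206 counts in MAMs against 31, 6, 0, 9 and 4 counts in RAMs. Without the filter it was higher, with a log2 fold change of 5.06 (SE 0.811, edgeR adjusted p = 5.4e-05). Of the members not tested otherwise, Trim71 also passed upward in that fit and Trim60, Trim75 and Trim43a downward. Trim71, a developmental RNA regulator, gave 358, 28, 27, 1 and 65 counts in MAMs and 0 in all RAM libraries, and MAM1 held most of them. Trim75 gave 3, 0, 0, 0 and 37 counts in MAMs against 94, 232, 261, 83 and 55 counts in RAMs. Trim60 was at 0 in all MAM libraries and gave 14, 12, 67, 0 and 28 counts in RAMs.

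Of 5 TRIM proteins that carry other names, Mid2 (2.16 CPM in MAMs, 0.347 CPM in RAMs) and Rnf207 (0.278 and 0.948 CPM) were not tested. The 3 tested were over 2-fold higher, with log2 fold changes of 3.15 for Pml (the nuclear body scaffold), 1.30 for Mid1 and 7.17 for Mefv (pyrin). Mefv was at 50.9 CPM in MAMs and 0.343 CPM in RAMs. With so little in RAMs it likely passed the filter through MAMs alone, so its difference may have been set in advance. Of the 11 ubiquitin-conjugating (E2) enzymes that TRIM ligases use, 7 were higher (63.6%, against 28.9% of all genes tested) and the other 4 did not pass. Ube2l6, the enzyme that conjugates ISG15, was at 2.95, Ube2v1 at 1.00 and Ube2e2, at 2.32 CPM in MAMs and 0.0256 CPM in RAMs, at 6.49. The same limit as for Mefv holds for Ube2e2, which is 1 of the 7. In RNA and DNA sensing signaling, the pathway several TRIM ligases act on, 14 of 16 genes were higher (87.5%), led by Irf7 at 5.81, Ikbke at 4.26 and Dhx58 at 3.09. Mavs was lower at -1.80 and Irf3 did not pass at -0.21, both named after their values were seen. Of the 9 tested partners of KAP1, 3 were higher (Morc3 at 1.38, Chd3 at 1.12 and Cbx5 at 0.50) and 2 lower. These shares, 33.3% and 22.2%, were near the 28.9% and 27.3% of all genes tested.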

How the data were processed

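RNA-seq of 5 MAM and 5 RAM samples was analysed. The authors aligned reads to GRCm38/mm10 with TopHat 2.0.13, deposited counts of uniquely mapped reads per gene from HTSeq 0.6.1 on UCSC RefGene models, and deposited FPKM from Cufflinks 2.2.1. Each sample was an individual mouse or pooled metastases by the methods. The strand setting of the counting is not given in the sources used here. Rows naming no gene, which held 54.6% to 58.3% of the counted reads in MAMs and 62.2% to 64.1% in RAMs, were left out. The filter kept 11571 of 24538 genes, those whose FPKM averaged 1 or more in MAMs or in RAMs and that had any count. They were tested with edgeR 4.0.16 (R 4.3.3, quasi-likelihood) and Benjamini-Hochberg adjustment over all of them. TMM factors were 0.897 to 0.943 in MAMs and 1.07 to 1.10 in RAMs. A prior count of 2 entered values of log2 CPM only, not this fit. The standard error (SE) of a log2 fold change was derived as its absolute value over the square root of the quasi-likelihood F statistic. CPM is the count scaled to the TMM-adjusted total of the tested genes. Shared sequence was the share of 100-base words of the longest GENCODE M21 transcript found in another gene, and positions are from GENCODE M21 on GRCm38. Motifs were searched on both strands. Alternatives were DESeq2 1.42.0, other scalings and filters, limma 3.58.1 on log2(FPKM + 1) and log2(FPKM + 0.1), glmTreat, a replicate block and each library left out. Scripts were tested on simulated data. Plots used matplotlib 3.10.9 (Python 3.11.15).

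The members and gene lists were chosen with earlier results of these data known. Any member could be named. Members over 2-fold, the 3 most abundant per group and the chromosome 7 cluster are given per library, other lists by their 3 largest changes, and any other gene after its values were seen. A count of 0 allows up to 3 counts, which covers counting error only. Protein sequences were not used here, so the classes by C-terminal domain, written from general knowledge, were not checked against them.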

Additional observations from a re-analysis of the deposited data

Results flagged for a closer look

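In 6 of 82 groups of 5 libraries tested (41 members in each of 2 groups), 1 library stood apart from the other 4 by Dixon's criterion, which chance meets in about 1 in 20 groups. Trim46 was at 49.3 CPM in RAM5, where the other RAM libraries lay between 20.6 and 26.5, and at 1.48 CPM in MAM3, where the others lay between 4.13 and 4.80. Trim72 was at 2.59 CPM in MAM2, against at most 0.804 in the others. Trim42 was at 0.163 CPM in MAM1, which is 8 counts, against at most 0.0375. Trim7 was at 5.31 CPM in RAM5, below 8.25 to 8.64 in the others. Trim62 was at 19.3 CPM in RAM3, above 5.97 to 9.06 in the others. Why these libraries stood apart was not tested.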

How the results depend on the processing

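Upper-quartile scaling gave 12 members higher and 15 lower, and 7 higher and 8 lower over 2-fold, so the balance between the directions turned. A test against a 2-fold change (glmTreat) called 7 higher and 5 lower, fewer by its construction, and limma on log2(FPKM + 1) called 4 members over 2-fold lower. The median log2 fold change was -0.24 under upper-quartile scaling and -0.19 with no filter, over 64 members. The cause was not tested. Members whose sign turned never passed. The log2 fold change of Trim5 was -0.12 under upper-quartile scaling and -0.039 and -0.048 under limma. Trim3 was at -0.041 and Trim62 at -0.092 under upper-quartile scaling. The log2 fold change of Trim23 was 0.00693 with no filter, 0.0067 with edgeR's filter and 0.010 and 0.00861 under limma. With each library left out, Trim3 ran from -0.017 to 0.18, Trim5 from -0.035 to 0.12, Trim23 from -0.16 to 0.10, Trim32 from -0.054 to 0.33 and Trim62 from -0.075 to 0.42. Upper-quartile scaling lowered the share of higher calls among all genes from 51.4% to 40.3%. The shared replicate numbers did not pair the samples, with correlations of their deviations from -0.0366 to 0.0294. With the replicate block 15 members were higher and 12 lower, since Trim65 passed. At most 3 counts in every library were found for 6 members, for which no difference was detectable at this depth.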

Other observations

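The members sit on 15 chromosomes, and chromosome 7 holds 15 of them, more than any other. Of the 13 tested there, 6 were over 2-fold higher in MAMs and 1, Trim72, over 2-fold lower. Of all genes tested 15.3% and 15.1% were. The cluster described above holds 5 of these 6. Trim30b, 1 of the 5, passed the filter through MAMs alone, and Trim72 passed it through RAMs alone. Chromosome 11 holds 11, of which 8 were tested and 1, Trim37, was over 2-fold lower. Chromosome 3, with 4 members tested, holds 3 of the 7 members over 2-fold lower, Trim45, Trim46 and Trim59. Trim45 passed the filter through RAMs alone.

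The spread between libraries was wider in MAMs, with a median coefficient of variation of 21.1% over the 41 members tested against 14.0% in RAMs. For the 15 members over 50 CPM in either group it was 12.7% and 9.93%, and for the 11 under 15 CPM in both it was 38.8% and 34.0%.

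The core of the gamma-activated site (TTCNNNGAA) stood in 0 of the 6 windowed members over 2-fold higher and in 2 of the 6 over 2-fold lower, against 8.24% of tested genes with a window. The PU.1 core (GAGGAAGT) stood in 1 of 6 and 0 of 6, against 4.02%.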
